A study of Mus musculus with 5 samples.

Results

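The genes described here are 10 CC chemokines of the mouse, Ccl2, Ccl3, Ccl4, Ccl5, Ccl6, Ccl7, Ccl8, Ccl9, Ccl11 and Ccl20, out of 22146 genes listed in the series. They were taken by name and not by any measured value, and all 10 were followed in every cell that had at least 500 detected genes and at most 15% mitochondrial counts. The series holds 5 inDrop single-cell RNA-seq libraries of mouse colon, in which each captured messenger RNA carries a unique molecular identifier (UMI). A total of 8491 cells were kept.

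Tumor libraries came from WT mice that received the carcinogen azoxymethane (AOM, 2 injections of 10 mg/kg) and 2% dextran sodium sulfate (DSS) in the drinking water, and that bore colon tumors at 12 weeks. All tumor mice then received 5FU+Irinotecan, each drug at 50 mg/kg, in 3 cycles, so there was no tumor library without chemotherapy. Day 1 had 2 libraries (replicates 1 and 2), day 3 had 1 and day 6 had 1. Per the study, day 1 is early and days 3 and 6 are late. Mice were 6 to 12 weeks old at the start, and the strain of each library (C57BL/6J or a mixed background) and whether a library pooled mice were not given in the sources used here. The fifth library, labelled WT fibroblast, was untreated normal colon enriched for stroma. It was prepared by another dissociation, with the crypts removed first, whereas the tumors were filtered at 40 µm and the retained epithelial crypts were kept. Tumor, chemotherapy and dissociation therefore cannot be told apart in any comparison of tumor with normal, and normal colon is 1 library.

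Chemokines are small secreted proteins that direct the migration of leukocytes. The CC subfamily acts through receptors named Ccr, and atypical receptors named Ackr take chemokines up without signalling for migration. Ccl2 and Ccl7 draw monocytes, largely through Ccr2, and Ccl8 is a close relative of both. Ccl3 and Ccl5 act on leukocytes through Ccr1 among others, and Ccl4 is a close relative of Ccl3. Ccl6 and Ccl9 are rodent ligands of Ccr1, Ccl11 (eotaxin) draws eosinophils through Ccr3, and Ccl20 is an epithelial ligand of Ccr6 on lymphocytes and dendritic cells.

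Of the members, 9 lie on chromosome 11 in 2 groups (GRCm38). Ccl2, Ccl7, Ccl11 and Ccl8 lie in this order between positions 82035571 and 82116799, and Ccl5, Ccl9, Ccl6, Ccl3 and Ccl4 between 83525778 and 83664683. Ccl20 lies on chromosome 1 at 83116766 to 83119167. Both Ccl6 and Ccl2 overlap a transcript on the opposite strand: all 5206 bases of Ccl6 lie within E230016K23Rik, and all 1883 bases of Ccl2 overlap Gm17268. The amplification reads RNA from the poly(A) end, and counting by strand was not given in the sources used here, so reads of Ccl6 and Ccl2 cannot be told apart with certainty from those of their antisense partners. At the transcript ends, at most 1.4% of the 30-base words of a member (Ccl6) were shared with another gene.

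RefSeq promoter sequence was at hand for 5 of the 10 members, Ccl3, Ccl6, Ccl8, Ccl9 and Ccl20. The 250 bases before the start of 3 of them are shown, because Ccl6 and Ccl9 are neighbours that shared macrophages as a source but not neutrophils, and Ccl8 was the 1 member called in macrophages between tumor and normal colon. Each is written in the direction of its gene (Ccl6 chr11:83593088-83593337, minus strand; Ccl9 chr11:83578637-83578886, minus strand; Ccl8 chr11:82114935-82115184, plus strand; GRCm38.p6), and capitals mark matches to 4 motifs searched on both strands.
Ccl6: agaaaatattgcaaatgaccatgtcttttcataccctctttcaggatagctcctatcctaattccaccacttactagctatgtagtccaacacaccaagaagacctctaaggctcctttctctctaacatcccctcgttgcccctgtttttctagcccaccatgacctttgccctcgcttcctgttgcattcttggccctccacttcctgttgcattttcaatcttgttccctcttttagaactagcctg
Ccl9: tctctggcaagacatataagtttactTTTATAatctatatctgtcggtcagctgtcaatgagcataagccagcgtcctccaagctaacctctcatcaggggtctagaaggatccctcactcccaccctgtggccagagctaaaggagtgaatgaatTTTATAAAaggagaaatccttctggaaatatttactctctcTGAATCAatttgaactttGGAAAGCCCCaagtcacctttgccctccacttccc
Ccl8: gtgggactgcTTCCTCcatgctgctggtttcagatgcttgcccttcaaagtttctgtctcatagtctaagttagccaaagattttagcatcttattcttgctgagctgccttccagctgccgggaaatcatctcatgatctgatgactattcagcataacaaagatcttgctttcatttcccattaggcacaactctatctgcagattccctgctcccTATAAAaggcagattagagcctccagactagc

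The motifs were the NF-kB consensus, TGANTCA (the AP-1 element), TATAAA and GAGGAA (a PU.1-type core). Of 32851 mouse promoter windows of this length, 3.90%, 6.75%, 12.4% and 23.3% held them, in this order. The Ccl9 window held an NF-kB match 35 bases before the start, a TGANTCA match 53 bases before it and 3 TATAAA matches, 2 of which overlap. The Ccl8 window held TATAAA 32 bases before the start and GAGGAA at 240. The Ccl6 window held none of these letters. In the windows not shown, Ccl20 held an NF-kB match 80 bases before the start and GAGGAA at 222 and 237, and Ccl3 held GAGGAA at 33. These matches are descriptions of sequence, not measured sites.

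Depth was similar between libraries, with medians of 2903 to 3601 UMIs per cell, and pairs of libraries shared 4 to 42 barcodes. Cells were clustered separately in tumor and normal colon without the members and the chemokine receptors, and clusters were named from marker genes, so all names mean "-like". Values for several libraries are listed below as day 1 replicate 1, day 1 replicate 2, then day 3, then day 6, followed by normal colon where it is given. Numbers of cells per type were uneven: macrophage-like cells numbered 47, 142, 5, 154 and 70, and neutrophil-like cells 69, 391, 28, 24 and 0. Fibroblast-like cells numbered 14, 39, 30, 56 and 263, so the library labelled WT fibroblast also held 328 columnar-like cells and 70 macrophage-like cells. Clusters that met no naming rule held 150, 333, 23 and 15 tumor cells, or 20.1%, 13.9%, 1.62% and 0.53% of each library. Their median depths were 9533, 10641, 5852 and 9265 UMIs. These unnamed cells enter no level of a named type and no test, unevenly between early and late libraries. Columnar-like tumor cells fell into different clusters by library: day 6 cells were led by Pigr, Adh1 or Ifit1bl1, day 3 cells by Gpx2 or Gprc5a, and day 1 replicate 2 cells by Fut9, Trim30a or Clca4a. Normal columnar-like cells were led by Tgm3 and Car1 or by Clca3b and Nxpe2. Levels are given as CPM, the UMIs of a gene scaled to the total UMIs of the summed cells of a type, with exact 95% Poisson intervals that cover counting error only. With 1 end of each transcript counted, CPM is not affected by gene length.

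Ccl3 and Ccl4, the macrophage inflammatory proteins, had macrophage-like cells as their main source. Ccl3 was at 326, 277, 221 and 305 CPM in macrophage-like cells of the tumors and at 363 (294 to 443) in normal colon. These 5 levels lay close together, although the day 3 value rests on 4 UMIs. Ccl4 was at 382, 394, 0 and 467 CPM in tumors and at 438 in normal colon. The 0 comes from 5 cells and allows up to 166 CPM, taking 3 counts as the limit of a count of 0. Macrophage-like cells made up 5.45% to 6.39% of cells in the 4 libraries other than day 3, and gave 47.1% to 93.2% of all Ccl3 UMIs there.

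A few cells carried most of these transcripts. On day 6, 23 of 154 macrophage-like cells had a Ccl3 UMI and 1 cell held 38 of the 198 UMIs. Both genes were in 17 of those cells, out of 31 with Ccl4. In day 1 replicate 2 both genes were in 13 cells, out of 20 with Ccl3 and 26 with Ccl4, and in normal colon in 12 cells, out of 20 and 14. Across 55 sums of at least 10 cells of 1 type in 1 library, Ccl4 was the gene whose level followed Ccl3 most closely among 15155 genes (Pearson r = 0.95, a description, since sums share libraries and depth).

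Neutrophil-like cells were the next source. Ccl3 stood there at 29.9, 96.7, 71.1 and 231 CPM and Ccl4 at 173, 157, 85.3 and 642 CPM in tumors, and normal colon had no such cluster. The day 6 value of Ccl4 lay apart from the other 3 and came from 25 UMIs in 4 of 24 cells. In a fit with the library as a term (edgeR's quasi-likelihood test with Benjamini-Hochberg adjustment over all genes, as in every test below), Ccl3 was higher in macrophage-like than in neutrophil-like cells of tumors, by 1.68 ± 0.31 (SE) on the log2 scale, with an adjusted p of 2.33e-05. Ccl4 differed by 0.72 ± 0.28 and missed the threshold (edgeR, adjusted p = 0.0505). No Ccl3 UMI was found in fibroblast-like cells of any library, so the summed macrophage-like level in tumors, 295 CPM, was at least 54.8-fold higher than that of tumor fibroblast-like cells, taking 3 counts over the group as the limit.

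In day 1 replicate 2, the 26 cells of the T cell-like cluster also held 81 Ccl3 UMIs (1138 CPM), 49 of Ccl4 (688 CPM) and 54 of Ccl9 (759 CPM), each above every macrophage-like level. On day 6 the 159 cells of that cluster held 48.2, 173 and 14.2 CPM. Of the Ccl3 UMIs, 76 were in 8 cells with a UMI of Cpa3, the mast cell and basophil carboxypeptidase. The same 8 cells held 43 UMIs of Ccl4, 75 of Ccl6 and 50 of Ccl9, and none of Ccl5. They held no UMI of the T cell genes Cd3e and Trac, but 160 of Hdc, 24 of Ms4a2 and 13 of Mcpt8. The cluster name T cell-like may therefore not hold for them. This subset was chosen after its values were seen, and on day 6 the 4 such cells held 2 UMIs of Ccl3 and 12 of Ccl6.

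**Figure D1:**
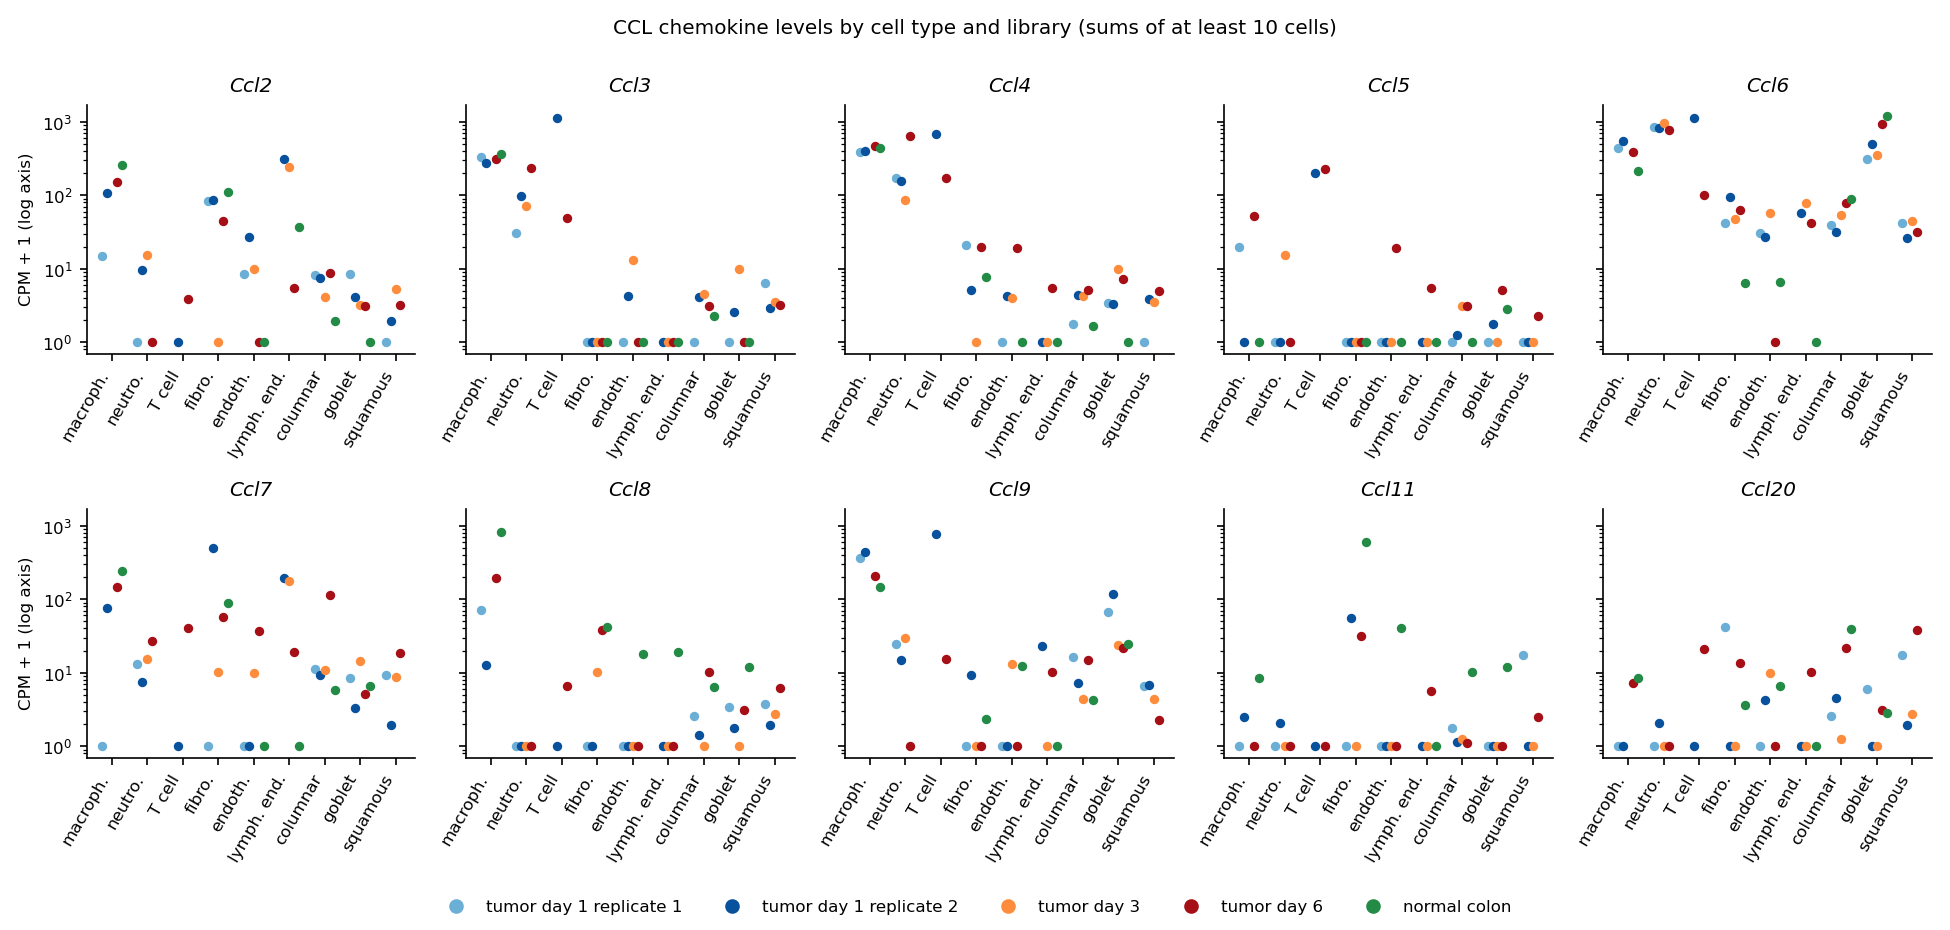
Level of each of the 10 chemokines by cell type (CPM + 1, log axis), 1 point per library, for sums of at least 10 cells, so macrophage-like cells of day 3 (5 cells) are not drawn. Ccl3, Ccl4 and Ccl9 are high in macrophage-like cells. A single T cell-like point, day 1 replicate 2, lies above them (1138, 688 and 759 CPM). Most UMIs of that point lie in 8 cells with a UMI of Cpa3 and none of Cd3e or Trac. Ccl6 is high in neutrophil-like and goblet-like cells, Ccl11 in normal fibroblast-like cells (605 CPM), and the dark red day 6 point of Ccl7 in columnar-like cells (111 CPM) stands above the other libraries.

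Ccl6 had 3 high sources: neutrophil-like, goblet-like and macrophage-like cells. Neutrophil-like cells held 854, 814, 967 and 771 CPM in tumors, a range narrower than the interval of the day 6 value (520 to 1100). Macrophage-like cells held 438, 546, 276 and 384 CPM in the same order and 215 (163 to 279) in normal colon. Ccl6 was lower in macrophage-like than in neutrophil-like cells by 0.95 ± 0.23 on the log2 scale (edgeR, adjusted p = 0.00103).

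Goblet-like cells held 311, 503, 356 and 933 CPM of Ccl6 in tumors and 1198 (1108 to 1294) in normal colon, where they gave 65.5% of all Ccl6 UMIs from 6.3% of the cells. The day 6 and normal values lay above the other 3. After thinning every cell to 1000 UMIs, 52.2% of 46 goblet-like cells on day 6 and 55.1% of 69 in normal colon had a Ccl6 UMI, against 17.6% to 31.6% in the other libraries. The unthinned shares were 80.4% and 91.3%, at median depths of 9430 and 6035 UMIs. In columnar-like cells of normal colon the thinned share was 3.1%. The tumor goblet-like cluster was also led by Defa23, Lyz1 and Defa17, genes of Paneth cells, which were not among the leading genes of its normal counterpart. Columnar-like cells were lower, at 38.2, 30.9, 53.6, 77.2 and 86.7 CPM.

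Ccl9, the neighbour of Ccl6, shared the macrophage source but was near the detection limit in neutrophils. It stood at 364, 441, 387 and 205 CPM in macrophage-like cells of the tumors and at 144 (102 to 197) in normal colon. In neutrophil-like cells it stood at 23.9, 13.8, 28.4 and 0 CPM, from 19 UMIs in all, so the library levels of both types do not overlap. The difference was 4.62 ± 0.37 on the log2 scale (edgeR, adjusted p = 3.77e-14). Ccl9 passed the filter on low counts through the macrophage-like sums, where it is high, so this test adds no support to the levels. In day 1 replicate 2, 272 of 391 neutrophil-like cells had a Ccl6 UMI and 12 had a Ccl9 UMI, whereas in macrophage-like cells of that library the numbers were 89 and 81 of 142, with 65 cells holding both. Goblet-like cells held 66.3, 116, 22.5 and 20.8 CPM of Ccl9 in tumors and 23.8 in normal colon. Day 6 columnar-like cells held 115 Ccl9 UMIs, of which 1 cell gave 37.

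Macrophage-like cells were set against neutrophil-like and fibroblast-like cells of the same 4 tumor libraries. Against neutrophils, 4 of the 10 members passed the filter on low counts and 3 were called, Ccl3 and Ccl9 higher and Ccl6 lower, where 27.3% of all tested genes were called. Against fibroblasts, 5 passed and 3 were called, Ccl3, Ccl6 (2.68 ± 0.34) and Ccl9 (6.45 ± 0.57), all higher in macrophages, where 23.1% of all genes were called. Ccl2 (0.59 ± 0.45) and Ccl7 (-1.03 ± 0.57) did not pass in that comparison (edgeR, adjusted p = 0.425 and 0.222). Both Ccl3 and Ccl9 against fibroblasts, and Ccl9 against neutrophils, passed the filter through the macrophage-like sums, where they are high. These calls therefore add no support to the levels, and the counts of called members are not read as an excess over the shares of all genes. Of receptors, Ccr1 was the 1 tested gene of 14 against fibroblasts, and it was higher in macrophages by 5.29 ± 0.49 (edgeR, adjusted p = 1.93e-11). Ccr1 also passed the filter through the macrophage-like sums, where it is high, so its call adds no support.

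Ccl2 and Ccl7, the monocyte chemoattractants, had several sources, none of them high in every library. Ccl2 stood at 14.0, 107, 0 and 148 CPM in macrophage-like cells of the tumors and at 253 (196 to 321) in normal colon. In lymphatic endothelial-like cells it was at 314 CPM in day 1 replicate 2 and 244 on day 3, where 1 cell gave 54 of 72 and 1 gave 19 of 28 UMIs, and at 4.55 CPM on day 6. In fibroblast-like cells Ccl2 stood at 81.4, 84.2, 0 and 43.2 CPM in tumors and 110.1 in normal colon, where 14 of 263 cells held its 82 UMIs. The macrophage and fibroblast ranges overlap.

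Ccl7 stood apart in 1 library. On day 6, columnar-like cells held 935 Ccl7 UMIs (111 CPM, 104 to 119), 80.5% of all Ccl7 in that library. In columnar-like cells of both day 1 libraries the level was 10.3 and 8.19 CPM, on day 3 it was 9.96 and in normal colon 4.82 CPM. After thinning to 1000 UMIs, 6.76% of 1227 columnar-like cells on day 6 had a Ccl7 UMI, against 0.55% to 1.14% in the other libraries. Within that day 6 library, the cluster led by Ifit1bl1, Clca4b, Saa1, Ido1, Nos2 and Cd274 held 673 UMIs in 93 of 242 cells (264 CPM), the cluster led by Pigr and Hist1h2ap 92.9 CPM, and that led by Adh1 and Gsdmc4 30.2 CPM. Ido1, Nos2 and Cd274 are known targets of interferon gamma, and whether it bears on the Ccl7 level was not tested. T cell-like, plasma-like and squamous-like cells of the same library, which are not known as main sources of Ccl7, held 39.7, 24.5 and 17.4 CPM, with thinned shares of 3.23%, 3.45% and 2.13%. The level of the Adh1 cluster lay within the range of those types, and the other columnar-like clusters lay above it.

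**Figure D2:**
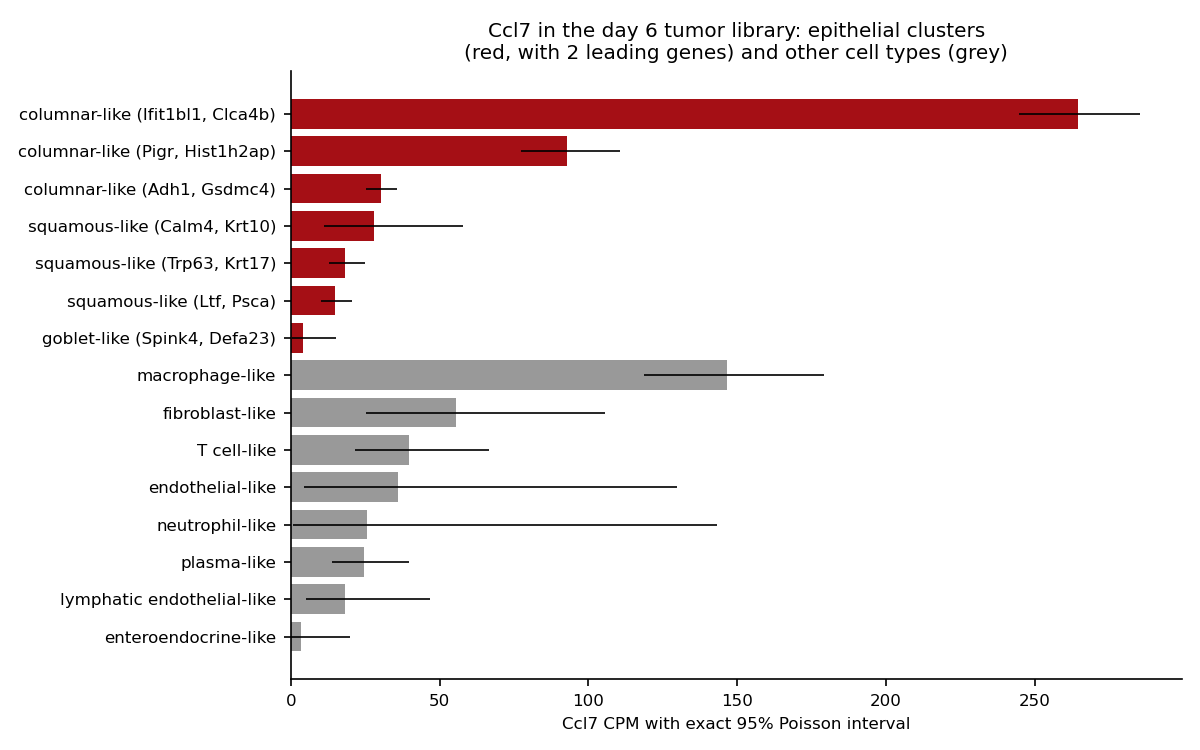
Ccl7 level in the day 6 tumor library (CPM, linear axis from 0), with exact 95% Poisson intervals, for epithelial clusters (red, named with 2 leading genes) and other cell types (grey). The Ifit1bl1 and Clca4b cluster holds 264 CPM, above macrophage-like cells at 147 CPM, and the other columnar-like clusters hold 92.9 and 30.2 CPM.

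Across the 4 tumor libraries, Ccl7 was lower in squamous-like than in columnar-like cells by 1.92 ± 0.50 on the log2 scale (edgeR, adjusted p = 0.0244). It was the 1 called member of 4 tested, where 21.7% of all tested genes were called, 10.4% as higher and 11.3% as lower. The squamous-like levels were 8.24, 0.97, 7.65 and 17.4 CPM, each below the columnar-like level of its own library. Without the day 6 library the difference was 0.83 ± 0.53 lower and not called (edgeR, adjusted p = 0.359), and without day 1 replicate 2 the adjusted p was 0.0653. Ccl2 (-1.49 ± 0.61), Ccl6 (-0.52 ± 0.29) and Ccl9 (-1.44 ± 0.67) did not pass.

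Elsewhere Ccl7 stood at 0, 75.9, 0 and 147 CPM in macrophage-like cells of the tumors and at 237.9 (183 to 304) in normal colon, an order like that of Ccl2. On day 6, both were in 12 macrophage-like cells, out of 22 with Ccl2 and 23 with Ccl7. Ccl2 was the gene most like Ccl7 across the 55 sums (Pearson r = 0.71, a description). Lymphatic endothelial-like cells held 192 CPM in day 1 replicate 2, with 38 of 44 UMIs in 1 cell, 175 on day 3 and 18.2 on day 6. In fibroblast-like cells Ccl7 reached 492 CPM in day 1 replicate 2, but 1 cell held 98 of the 117 UMIs, and the other libraries held 0, 9.19, 55.6 and 88.6 CPM.

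Ccl8 was mainly a macrophage transcript and was highest in normal colon. Macrophage-like cells held 70.0, 11.7, 0 and 193 CPM in tumors and 827 CPM (721 to 944) in normal colon, so no tumor library reached the normal level. In the normal library 30 of 70 macrophage-like cells (42.9%, median depth 2508.5 UMIs) had a Ccl8 UMI, against 1.8% of columnar-like cells (median depth 6025.5). After thinning to 1000 UMIs the macrophage-like share was 35.9% in normal colon and 0 to 7.3% in tumors. Fibroblast-like cells of normal colon held 40.3 CPM. The genes most like Ccl8 across the 55 sums were Dnase1l3, Fcrls and Il12b (Pearson r of 0.90, 0.88 and 0.87, a description).

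Macrophage-like cells of tumor and normal colon were compared to see whether the chemokines of this cell type differed with the tissue. A normal level above or below each tumor level is given here as a description. With 1 normal library such an order can arise without a difference, and its share over all genes was not computed. The day 3 levels rest on 5 cells. Of the 10 members, 8 passed the filter on low counts and 1 was called, Ccl8, which was lower in tumors by 3.51 ± 0.88 on the log2 scale (edgeR, adjusted p = 0.0485). Of all genes tested, 2.2% were called in either direction and 1.63% as lower. The call was lost without day 1 replicate 2 (edgeR, adjusted p = 0.114) and without day 3 (0.0963), in DESeq2 (0.539) and with the 6% of cells of highest doublet score removed (0.0792), with a change of -3.74 to -3.02 in those 4 settings. Ccl2 (-1.76 ± 0.78) and Ccl7 (-1.90 ± 0.90) had normal levels above each tumor level and did not pass (edgeR, adjusted p = 0.304 and 0.351). Ccl6 (0.67 ± 0.76) and Ccl9 (0.92 ± 0.74) had normal levels below each tumor level and did not pass (edgeR, adjusted p = 0.782 and 0.657). Ccl3 (-0.62 ± 0.65) was highest in normal colon, at 363 CPM against 221 to 326 in tumors, and Ccl4 (-0.59 ± 0.87) lay between the tumor libraries; neither passed (edgeR, adjusted p = 0.761 and 0.848). Ccl5 was at 0 in normal macrophage-like cells, and its summed tumor level of 23.6 CPM was at least 2.09-fold higher, taking 3 counts as the limit (edgeR, adjusted p = 0.448).

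**Figure D3:**
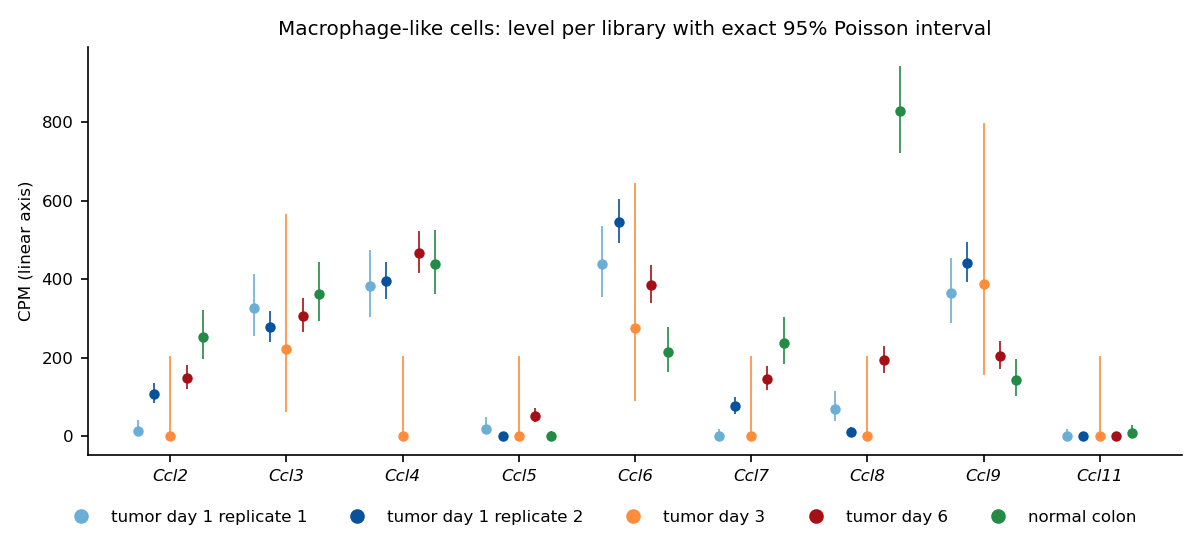
Level of 9 members in macrophage-like cells by library (CPM, linear axis) with exact 95% Poisson intervals. Ccl8 in normal colon (827 CPM) lies above all tumor libraries, Ccl2 and Ccl7 are also highest there (253 and 237.9 CPM), and the long day 3 bars come from 5 cells.

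Other genes moved in the same comparison. Of 12 dissociation stress genes (early-response and heat shock genes), 8 were lower in tumor macrophage-like cells, among them Hspa1a (-7.85 ± 0.79), Fosb (-5.44 ± 0.62) and Atf3 (-5.17 ± 0.67), with a list median of -3.33 against -0.02 for all genes. Their summed level was 1327 to 3810 CPM in tumor libraries and 18654 in normal colon. In fibroblast-like, endothelial-like and columnar-like cells 10, 11 and 10 of the 12 were lower. Of tissue-resident macrophage genes, Cd163 (-2.66 ± 0.60) and Folr2 (-4.52 ± 0.61) were lower, of 8 tested, and the summed level of that list was 940 to 1548 CPM in tumors and 3112 in normal colon. None of 9 monocyte genes was called (median 3.76), and their summed level was 2985 to 7532 CPM in tumors and 672 in normal colon. The part of these lists in the Ccl8 difference was not tested. Because both the number of cells of a kind within the cluster and the RNA per cell enter a sum, a smaller share of Ccl8-bearing cells and less Ccl8 per cell are not separated by the test.

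Ccl11, eotaxin, was a transcript of normal fibroblasts. Fibroblast-like cells of normal colon held 451 UMIs in 129 of 263 cells, or 605 CPM (551 to 664). In tumors they held 0, 54.7, 0 and 30.9 CPM, from 18 UMIs in all, so no tumor library came near the normal level. In the normal library 49.0% of fibroblast-like cells (median depth 2238 UMIs) had a Ccl11 UMI, against 6.1% of columnar-like cells (median depth 6025.5). After thinning to 1000 UMIs the shares were 30.9% and 0.623%, and 0 to 3.92% of fibroblast-like cells in tumors. The 3 normal fibroblast-like clusters, led by Eln and C4b, by Fbln1 and Sfrp1, and by Pi16 and Cilp, held 596, 708 and 527 CPM, and their intervals overlap.

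In the same library, telocyte-like cells, the Foxl1 and Pdgfra stromal cells that line the crypts, held 1 Ccl11 UMI in 101 cells (3.8 CPM, 0.097 to 21.3). Their fibroblast markers were nearly as high, at 28626 CPM in sum against 36370 in fibroblast-like cells. Per 1000 UMIs of those markers, Ccl11 came to 16.6 in fibroblast-like cells but 0.133 in telocyte-like ones. In columnar-like, macrophage-like, goblet-like and myofibroblast-like cells the ratio was 23.1, 7.7, 10.1 and 13.9, and in B cell-like and glial-like cells it was 8.80 and 7.87. It was higher in pericyte-like (29.6, at 193 CPM), endothelial-like (30.2, from 7 UMIs) and plasma-like cells (67.8, from 12 UMIs), and lymphatic endothelial-like cells held no Ccl11 UMI. With 1 normal library this difference between stromal types has no replicate check.

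**Figure D4:**
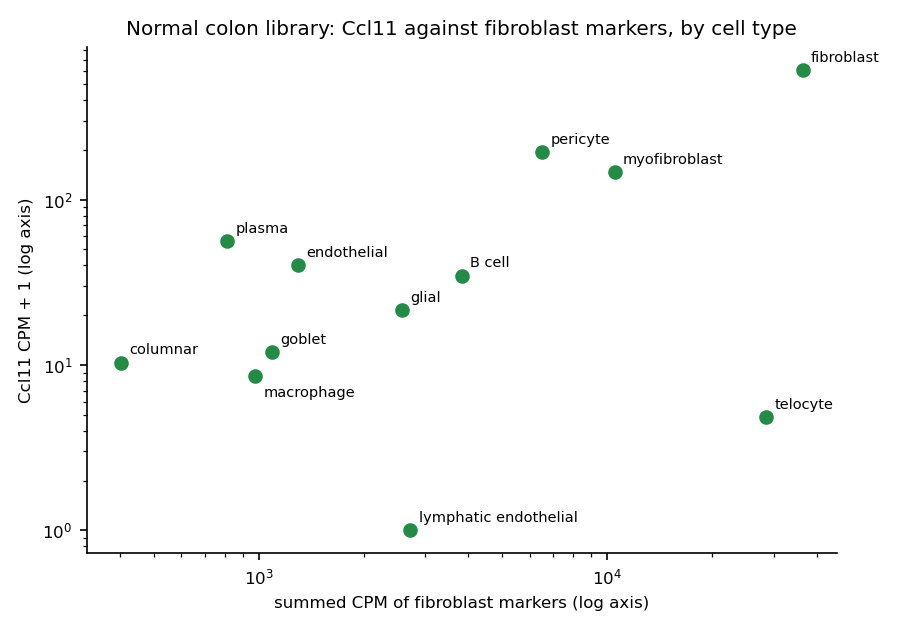
Ccl11 level (CPM + 1, log axis) against the summed level of the fibroblast markers (CPM, log axis) in the normal colon library, 1 point per cell type. Fibroblast-like cells are at the top right (605 CPM of Ccl11), and telocyte-like cells have a similar marker level but 3.8 CPM of Ccl11.

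Fibroblast-like cells, pooled with telocyte-like cells because tumors had no cluster of the latter, were then compared between tumor and normal colon. Ccl11 passed the filter on low counts only through the normal library, where it is high. Its call therefore adds no support to the levels given above. Of the 10 members, 4 passed the filter and 1 was called: Ccl11 was lower in tumors by 4.34 ± 0.87 on the log2 scale (edgeR, adjusted p = 0.0236). Of all genes tested, 1.91% were called, 0.732% as higher and 1.17% as lower. Ccl11 kept its call in every alternative run, with changes from -5.18 to -3.63, and in DESeq2 the adjusted p was 0.0324. With telocyte-like cells left out, it was lower by 4.80 ± 0.87 (edgeR, adjusted p = 0.0153). Ccl6 (2.61 ± 1.02), Ccl2 (-1.02 ± 0.92) and Ccl7 (0.29 ± 1.38) did not pass (edgeR, adjusted p = 0.258, 0.758 and 0.972), and Ccl7 turned to -2.08 without day 1 replicate 2, the library of the single cell named above. Tumor fibroblast-like cells were led by Mmp10, Mmp13, Mmp3 and Saa3, which were not leading genes of any normal fibroblast-like cluster. The stress list stood at 1617 to 2218 CPM in tumor and 29811 CPM in normal fibroblast-like cells, and its part in the Ccl11 difference was not tested.

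Ccl11 was also the 1 called member of 9 tested in columnar-like cells, lower in tumors by 5.40 ± 0.93 (edgeR, adjusted p = 0.0252), where 1.93% of all genes were called and 1.31% as lower. It passed the filter through the normal library, at 9.3 CPM, and its ratio to fibroblast markers there is given above. In tumors it stood at 0.12 to 0.80 CPM. The call was lost without day 1 replicate 2 (edgeR, adjusted p = 0.0745), without day 3 (0.0714) and in the dual index libraries alone (0.0991). In the same cells Ccl2 (2.57 ± 0.99), Ccl7 (2.96 ± 1.85), Ccl4 (2.20 ± 1.254) and Ccl9 (1.48 ± 1.00) had positive changes and Ccl20 (-2.38 ± 1.32) a negative one, and none passed. The same held for Ccl6 (-0.80 ± 0.62), Ccl8 (-0.77 ± 1.71) and Ccl3 (0.83 ± 1.31). The median over all genes tested was 0.12 in columnar-like and 0.19 in endothelial-like cells. In endothelial-like cells 1 member, Ccl6, could be tested and it was not called (2.22 ± 2.07, edgeR, adjusted p = 0.700), where 2.79% of all genes were called; at an unadjusted p under 0.05 the count of members was also 0, and DESeq2 gave 0.

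**Figure D5:**
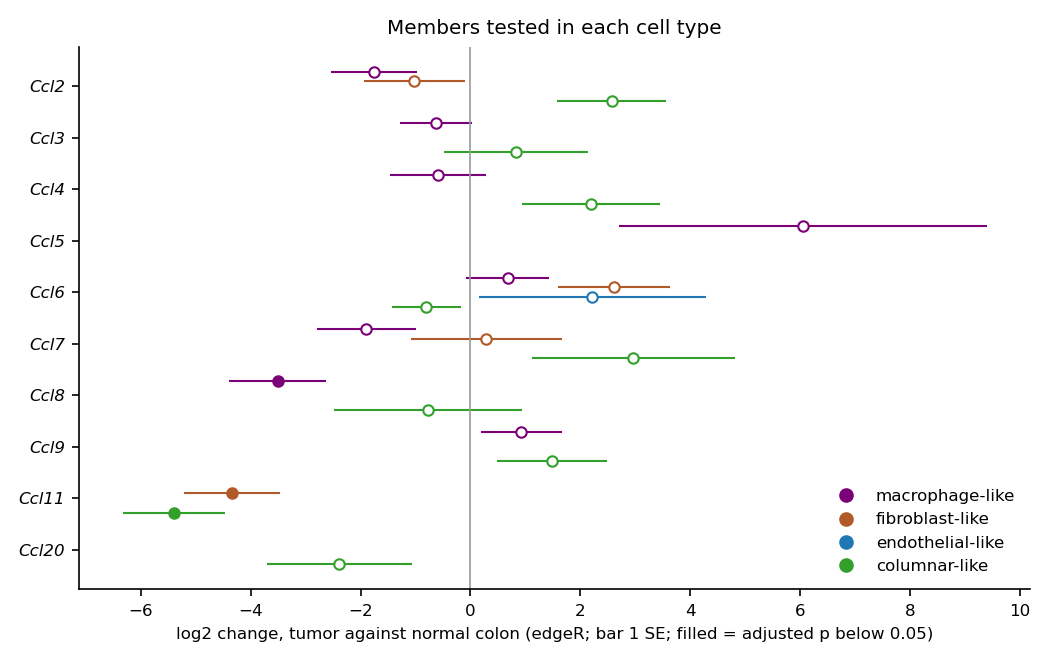
Log2 change of the tested members, tumor against normal colon, by cell type (edgeR, bars of 1 SE, filled points past an adjusted p of 0.05). Ccl8 in macrophage-like cells (-3.51) and Ccl11 in fibroblast-like (-4.34) and columnar-like cells (-5.40) are filled, and the Ccl5 point rests on a normal level of 0 and is no estimate of a fold.

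Most Ccl20 UMIs of day 6 and normal colon were in epithelial cells, and its level was uneven. Columnar-like cells held 1.59, 3.49, 0.24 and 20.6 CPM in tumors and 37.9 (31.4 to 45.4) in normal colon, where they gave 93.7% of all Ccl20. Squamous-like cells, a type found in tumors, held 16.5, 0.97, 1.7 and 37.6 CPM. Fibroblast-like cells held 40.7, 0, 0 and 12.4 CPM in tumors and 2.68 in normal colon, from at most 2 UMIs in a library. The order of the types in tumors did not go beyond the spread between libraries. Day 6 was the highest tumor library in columnar-like and squamous-like cells, with 173 UMIs in each. In normal colon 27 of 328 columnar-like cells held the 118 UMIs, and 1 cell held 26 of them. After thinning, 2.8% of columnar-like cells in normal colon and 1.2% on day 6 had a Ccl20 UMI, so few cells lie behind each level. In day 1 replicate 2, enteroendocrine-like cells stood at 65.6 CPM from 13 UMIs in a single cell.

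Ccl5, a lymphocyte chemokine, was detected in few cells. T cell-like cells held 197 CPM in day 1 replicate 2 (14 UMIs in 2 of 26 cells) and 230 CPM (182 to 286) on day 6 (81 UMIs in 18 of 159 cells). Normal colon had no cluster named T cell-like, and 36 of its 37 Ccl5 UMIs were in the B cell-like cluster, whose leading genes include the T cell genes Gata3 and Icos beside Ighm and Bank1. Macrophage-like cells held 18.7 CPM in day 1 replicate 1 and 50.9 on day 6. Among the genes most like Ccl5 across the 55 sums were Nkg7 and Cd3e (Pearson r of 0.93 each, a description).

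Late and early tumors were compared within 4 cell types, to see whether member levels differed with the day. The study's methods count the days post-treatment, with harvest after the last cycle, whereas its results speak of treatment lasting 1, 3 and 6 days. No member was called in macrophage-like (7 tested), neutrophil-like (3), fibroblast-like (1) or columnar-like cells (8), where 0.462% (0.188% as higher), 0.0392%, 0% and 0% of all genes were called. At an unadjusted p under 0.05 (edgeR) there were 2 members in macrophage-like cells (Ccl7 and Ccl8), where 380 of 6920 genes met it. There were 3 in columnar-like cells (Ccl5, Ccl6 and Ccl7), where 786 of 12865 genes did. In neutrophil-like and fibroblast-like cells there were 0, against 163 of 2549 and 269 of 3333 genes. These counts of members are not read as an excess. DESeq2 called 0 members in each type. Ccl8 in macrophage-like cells was 2.21 ± 0.72 higher in late tumors (edgeR, adjusted p = 0.267). Without the day 3 library, which held 5 macrophage-like cells, the change of Ccl8 was 2.67 ± 0.53. Ccl7 in columnar-like cells was 3.09 ± 1.06 higher (edgeR, adjusted p = 0.768). Its change was 4.01 ± 0.45 without day 3 and 0.39 ± 0.62 without day 6. Fits without day 3 or day 6 leave 1 late library, so only their changes are given. These values rest on the day 6 library, which cannot be told apart from its day, since no other library has that day.

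Of the 14 receptors, Ccr1 was at 611, 584, 276 and 355 CPM in macrophage-like cells of tumors and 223 in normal colon, and at 418, 697, 128 and 437 CPM in neutrophil-like cells. Ccr2, the Ccl2 receptor, was at 490, 572, 0 and 173 CPM in macrophage-like cells of tumors and 200.2 in normal colon. Ccr2 was among the 3 genes most like Ccl9 across the 55 sums (Pearson r = 0.81, a description). Ccr6, the receptor of Ccl20, was at 180 CPM in the normal B cell-like cluster and at 45.4 CPM in T cell-like cells of day 6. No receptor was called between tumor and normal colon in macrophage-like (6 tested), fibroblast-like (1), endothelial-like (2) or columnar-like cells (5), nor between late and early tumors. Of the 8 other CC ligands, 4 could be tested in macrophage-like cells and 2 in columnar-like cells between tumor and normal colon, and none was called. Ccl28, a mucosal epithelial ligand, was lower in squamous-like than in columnar-like tumor cells by 2.27 ± 0.55 (edgeR, adjusted p = 0.0177).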

How the data were processed

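Per the labels and the study's methods, single cells were encapsulated by inDrop and libraries made by CEL-Seq amplification with a single index or dual index structure. The authors filtered, aligned and counted reads with dropEst on GRCm38 and deposited raw UMI counts per gene and cell, with no normalization.

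From these counts, cells with at least 500 genes and at most 15% mitochondrial counts were kept. Tumor and normal cells were clustered apart (2000 variable genes without members and receptors, 20 components, 20 neighbours, Leiden resolution 1, leidenalg 0.10.2) and named from marker lists; the naming rule was set after the clusters were seen. Doublets were kept, and an alternative removed the top 6% of Scrublet scores (scanpy 1.11.5). Summed counts per library and type were tested by the quasi-likelihood method of edgeR 4.0.16 at an adjusted p of 0.05 (Benjamini-Hochberg), after filterByExpr and TMM scaling, with DESeq2 1.42.0 as an alternative. Scripts were tested on simulated counts. The lone normal library was assumed to vary like the tumor libraries. The study calls both day 1 libraries biological replicates, and likewise day 3 and day 6, a term it uses elsewhere for different mice. Whether a library pooled mice was not given. The p-values measure the spread between these libraries, which may in part be technical.

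All 10 members are named for each result; of the lists of receptors, other CC ligands, monocyte, tissue-resident macrophage and dissociation stress genes, called genes are counted and named up to 6, otherwise the 3 largest changes. The 3 genes of highest Pearson correlation of log2(CPM + 20) are named as most like a member, where they were used. Members and lists were chosen with earlier results of these data known. Depth was 5132360 to 16904947 UMIs per library, in 752 to 2830 barcodes. A few genes of these lists are not reported here.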

Additional observations from a re-analysis of the deposited data

Results flagged for a closer look

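Pairs of a member and a cell type with at least 50 UMIs over the 4 tumor libraries numbered 17. Each was examined for a library far from the others, and 4 held such a library. By chance the rule flags about 1 in 20 if levels are normally distributed, which was not checked. The rate over all genes was not computed, so 4 of 17 is not read as an excess. Ccl7 in columnar-like cells was highest on day 6, at 111 CPM. Ccl20 in columnar-like cells was also highest on day 6, at 20.6 CPM. Ccl4 in neutrophil-like cells was highest on day 6, at 642 CPM from 4 cells. Ccl7 in fibroblast-like cells was highest in day 1 replicate 2, at 492 CPM, with 98 of 117 UMIs in 1 cell.

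The change between tumor and normal colon differed between cell types for several members. This was tested with an interaction term, with the library in the fit, in 26 tests chosen after seeing the data, of which 7 passed (edgeR). Between macrophage-like and columnar-like cells, the change was lower in macrophages for Ccl2 (-4.19), Ccl7 (-4.23) and Ccl8 (-2.65) and higher for Ccl6 (1.87) on the log2 scale, with adjusted p of 1.63e-04, 2.44e-07, 0.00936 and 0.0383. Between fibroblast-like and columnar-like cells, it was lower in fibroblasts for Ccl2 (-3.60) and Ccl7 (-2.75) and higher for Ccl6 (3.68), with adjusted p of 0.0482, 0.0479 and 0.00194. None passed between macrophage-like and fibroblast-like cells. In each of these tests the normal side is 1 library, and the comparisons with columnar-like cells called 415 of 12091 genes for macrophages and 486 of 13296 for fibroblasts. For Ccl7 the columnar side includes the day 6 library described above. For Ccl2 the columnar-like level in tumors was low, at 3.08 to 7.73 CPM. The median tumor level of Ccl6 in fibroblast-like cells, 53.9 CPM, was not particular to them. It was 53.6 CPM in plasma-like, 55.5 in enteroendocrine-like and 56.8 in lymphatic endothelial-like cells.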

How the results depend on the processing

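No paired analysis was possible because the groups compared (tumor and normal, late and early) share fewer than 2 replicate numbers. The comparisons of cell types were paired within the 4 tumor libraries by the library term. For tumor against normal colon, macrophage-like cells had 1 called member, 0 with DESeq2 and 0 with high doublet scores removed, and 0 to 1 on leaving out 1 library. Columnar-like cells had 1, 0 with high doublet scores removed, 0 in dual index libraries only, and 0 to 2 on leaving out 1 library. Endothelial-like cells had 0 and, with no filter on low counts, 1. Fibroblast-like cells had 1 throughout. For late against early, the count of 0 rose to 1 in columnar-like cells with no filter, where 254 of 19819 genes were called. Leaving out 1 library there leaves a group of 1 library, so members called in those fits are not counted. Macrophage-like against neutrophil-like cells had 3 called members, 6 with no filter, 1 without the library term, and 3 to 5 on leaving out 1 library; against fibroblast-like cells 3, 7 with no filter, and 3 to 4. Squamous-like against columnar-like cells had 1, 3 with no filter, 0 without the library term, and 0 to 2. Counts of all genes called also shifted, as given below, and no excess of members over them is read from these counts. The cause of these shifts was not tested.

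Of 526 values of members under an alternative, 26 changed sign, none of them called in the main setting. On leaving out 1 library, log2 changes of late against early ran in macrophage-like cells from -7.43 to 2.89 (Ccl2), -1.05 to 0.12 (Ccl3), -9.93 to 0.37 (Ccl4), -6.84 to 7.95 (Ccl7) and -6.48 to 3.53 (Ccl8). In neutrophil-like cells they ran from -0.13 to 2.19 (Ccl3), -1.05 to 1.99 (Ccl4) and -0.087 to 0.11 (Ccl6), and in columnar-like cells from -0.88 to 0.56 (Ccl2), -1.31 to 0.89 (Ccl9) and -3.20 to 3.18 (Ccl20). Ccl7 in fibroblast-like cells, tumor against normal, ran from -2.08 (without day 1 replicate 2) to 0.72, and Ccl2 in macrophage-like against fibroblast-like cells from -0.097 to 1.05. With high doublet scores removed, Ccl8 in columnar-like cells, tumor against normal, came to 0.57, and late against early Ccl3 in macrophage-like cells to 0.027 and Ccl2 in columnar-like cells to -0.072. At Leiden resolution 0.5, Ccl6 in columnar-like cells, tumor against normal, came to 0.070 and Ccl2, late against early, to -0.090, and the latter to -0.076 at resolution 2. With library structure as a block, Ccl2 and Ccl9 in columnar-like cells, late against early, came to -0.048 and -0.019. With no filter, Ccl6 in neutrophil-like cells came to -0.29.

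Counts of called genes over all genes ranged more widely over the alternatives: 81 to 570 in macrophage-like (162 in the main setting), 91 to 453 in fibroblast-like (112), 116 to 468 in endothelial-like (170) and 40 to 804 in columnar-like cells (267) for tumor against normal. Late against early they ran from 0 to 181 in macrophage-like (32), 171 in neutrophil-like (1), 175 in fibroblast-like (0) and 701 in columnar-like cells (0). For the type comparisons they ran from 313 to 1598 (1035), 490 to 1808 (938) and 946 to 3560 (2507). Among types with sums in at least 3 tumor libraries, which leaves out T cell-like cells, the leading type was the same for all 10 members at Leiden resolutions 2 and 0.5, for 7 with high doublet scores removed and for 8 by shares of cells thinned to 1000 UMIs. With high doublet scores removed, Ccl2 moved from lymphatic endothelial-like to macrophage-like, Ccl7 from lymphatic endothelial-like to fibroblast-like and Ccl20 from enteroendocrine-like to squamous-like cells. With thinning, Ccl5 moved from macrophage-like to neutrophil-like and Ccl20 to fibroblast-like cells. Depth limits the low types: day 3 macrophage-like sums hold 5 cells, so a count of 0 allows up to 166 CPM there. DESeq2 moved the split of higher and lower genes for tumor against normal from 42 and 120 to 46 and 35 in macrophage-like, from 43 and 69 to 114 and 60 in fibroblast-like, from 44 and 126 to 42 and 74 in endothelial-like and from 86 and 181 to 320 and 352 in columnar-like cells, and for late against early from 13 and 19 to 3 and 2 in macrophage-like cells.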

Other observations

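Some values of single genes were not given above. Ccl24, Ackr1 and Ackr4 were among the genes tested between tumor and normal colon, and none of them was called. In macrophage-like cells Ccl24, another CC ligand, stood at 42.0, 134, 0 and 278 CPM in tumors and at 37.8 CPM in normal colon. Ackr1, an atypical receptor of venular endothelium, stood at 541, 556, 264 and 1742 CPM in tumor endothelial-like cells and at 61.4 CPM in normal ones. Its fitted log2 change was 3.36 ± 1.08 in endothelial-like and 3.21 ± 1.53 in columnar-like cells. Ackr4, an atypical receptor that takes up other chemokines, was a leading gene of the Pi16 and Cilp cluster of normal fibroblast-like cells. Ccr10, the receptor of Ccl28, stood at 215, 223 and 121 CPM in plasma-like cells of day 1 replicate 1, day 1 replicate 2 and day 6, and at 551 CPM in normal colon. Between late and early tumors, Cbr2 of the tissue-resident macrophage list rose in macrophage-like cells by 5.76 ± 0.80 on the log2 scale (edgeR, adjusted p = 1.77e-05), but its fitted change was similar in neutrophil-like (5.31 ± 0.70), fibroblast-like (6.06 ± 0.86) and columnar-like cells (4.17 ± 0.56), where it did not pass (edgeR, adjusted p = 0.0603, 0.231 and 0.212). It was also 3.30 ± 0.28 higher in squamous-like than in columnar-like cells (edgeR, adjusted p = 1.98e-04).

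Further calls of the other lists follow (edgeR). In the type comparisons, in the order given here, 27.3%, 23.1% and 21.7% of all tested genes were called. Between tumor and normal colon, Hp of the monocyte genes was higher in fibroblast-like cells (1 of 5 tested) and Thbs1 lower in columnar-like cells (1 of 9). Against neutrophil-like cells, tumor macrophage-like cells had higher Fn1, Ly6c2, Thbs1 and Mrc1 and lower Hp, and 6 of 9 stress genes were lower. Against fibroblast-like cells they had higher Ly6c2, Thbs1 and Mrc1 and lower Vcan, with 2 stress genes higher and 2 lower. Squamous-like cells had lower Plac8, Gas6 and Mrc1 and higher Cbr2 than columnar-like cells, with 3 stress genes higher and 1 lower.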
